A study of Mus musculus with 87 samples.

Results

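The G1 cyclins and the kinases they drive were followed through liver regeneration in 19 groups of mouse livers. The set held 9 genes, chosen by symbol from the 37991 genes of the deposited expression table: the D-type cyclins Ccnd1, Ccnd2 and Ccnd3, the E-type cyclins Ccne1 and Ccne2, the kinases Cdk2, Cdk4 and Cdk6, and the phosphatase Cdc25a. All 9 passed the filter for testing, a level above -1.5 log2 RPKM (reads scaled to transcript length and library size; 0.354 RPKM) in at least 1 library, as did 15396 genes in all. The livers came from C57BL/6 male mice of 12 to 14 weeks, entrained to a light and dark cycle with food in the dark phase. Mice underwent 70% partial hepatectomy (PH, groups X), in which liver lobes are removed and the remnant regrows, or a sham laparotomy with no resection (groups S), both at ZT2 (2 h after lights on), or no surgery (groups C). The number in a group name is the hours from surgery, and W stands for weeks. Unoperated livers were taken at 0 h (C0, n = 9), 4 h (C4, n = 3) and 4 weeks (C4W, n = 2). Sham livers were taken at 1 h (n = 6), 4 h (n = 5), 10 h, 20 h and 48 h (n = 3 each). Post-PH livers were taken at 1, 10, 20 and 36 h (n = 6 each), 4, 28, 44 and 72 h (n = 3 each), 48 h (n = 5), 1 week (n = 3) and 4 weeks (n = 2). The 3 samples labelled as 60 h after PH were not analysed here, so no value lies between 48 and 72 h. No sham group was measured at 28, 36, 44 or 72 h or at 1 or 4 weeks, so levels at those times were compared with unoperated livers or with neighbouring times.

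Quiescent cells enter the division cycle through G1. D cyclins bind Cdk4 and Cdk6, and these complexes begin to phosphorylate the retinoblastoma protein, which holds E2F transcription factors in check. Released E2F raises the E cyclins, which activate Cdk2 for the start of DNA replication, while Cdc25a removes the inhibitory phosphates from Cdk2. In the adult liver most hepatocytes rest outside the cycle until tissue is lost, and cyclin D1 is the D cyclin best known for driving them back into it.

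Depth ranged from 12.2 to 48.8 (median 26.7), in M of reads per library, which put the lowest estimated count of Ccnd1 at 97.9 reads but that of Ccne1 at 1.00 read. Hepatocyte markers (Alb, Apoa1, Ttr, Cps1, Cyp2e1, Serpina1c) summed to group medians between 32553 and 56654 RPKM. Whole liver holds several cell types, and fewer cells of a type and less RNA per cell cannot be told apart in these values. Genes were tested with limma on log2(RPKM + 0.25) in 1 model of all 80 libraries, and a gene was called when its adjusted p (Benjamini-Hochberg over all genes tested) was below 0.05 and its log2 difference exceeded 0.5. Each log2 difference given here is on that scale, which understates the change of Ccne1 and Ccne2 where they were low.

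Before surgery the members differed widely in level per length of transcript. In C0 livers the mean was 9.25 ± 1.10 RPKM (SD, n = 9) for Ccnd3, 6.52 ± 0.766 for Cdk4, 3.64 ± 1.83 for Ccnd1 and 2.80 ± 0.466 for Cdk2. Ccnd2 stood at 0.829 ± 0.256 RPKM, Cdk6 at 0.702 ± 0.280 and Cdc25a at 0.647 ± 0.124. The E cyclins were the lowest, at 0.157 ± 0.0653 RPKM for Ccne2 and 0.0733 ± 0.0461 for Ccne1. Neither E cyclin passed 0.354 RPKM in any C0 library, and cyclin D3 was the most abundant cyclin of the set.

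**Figure D1:**
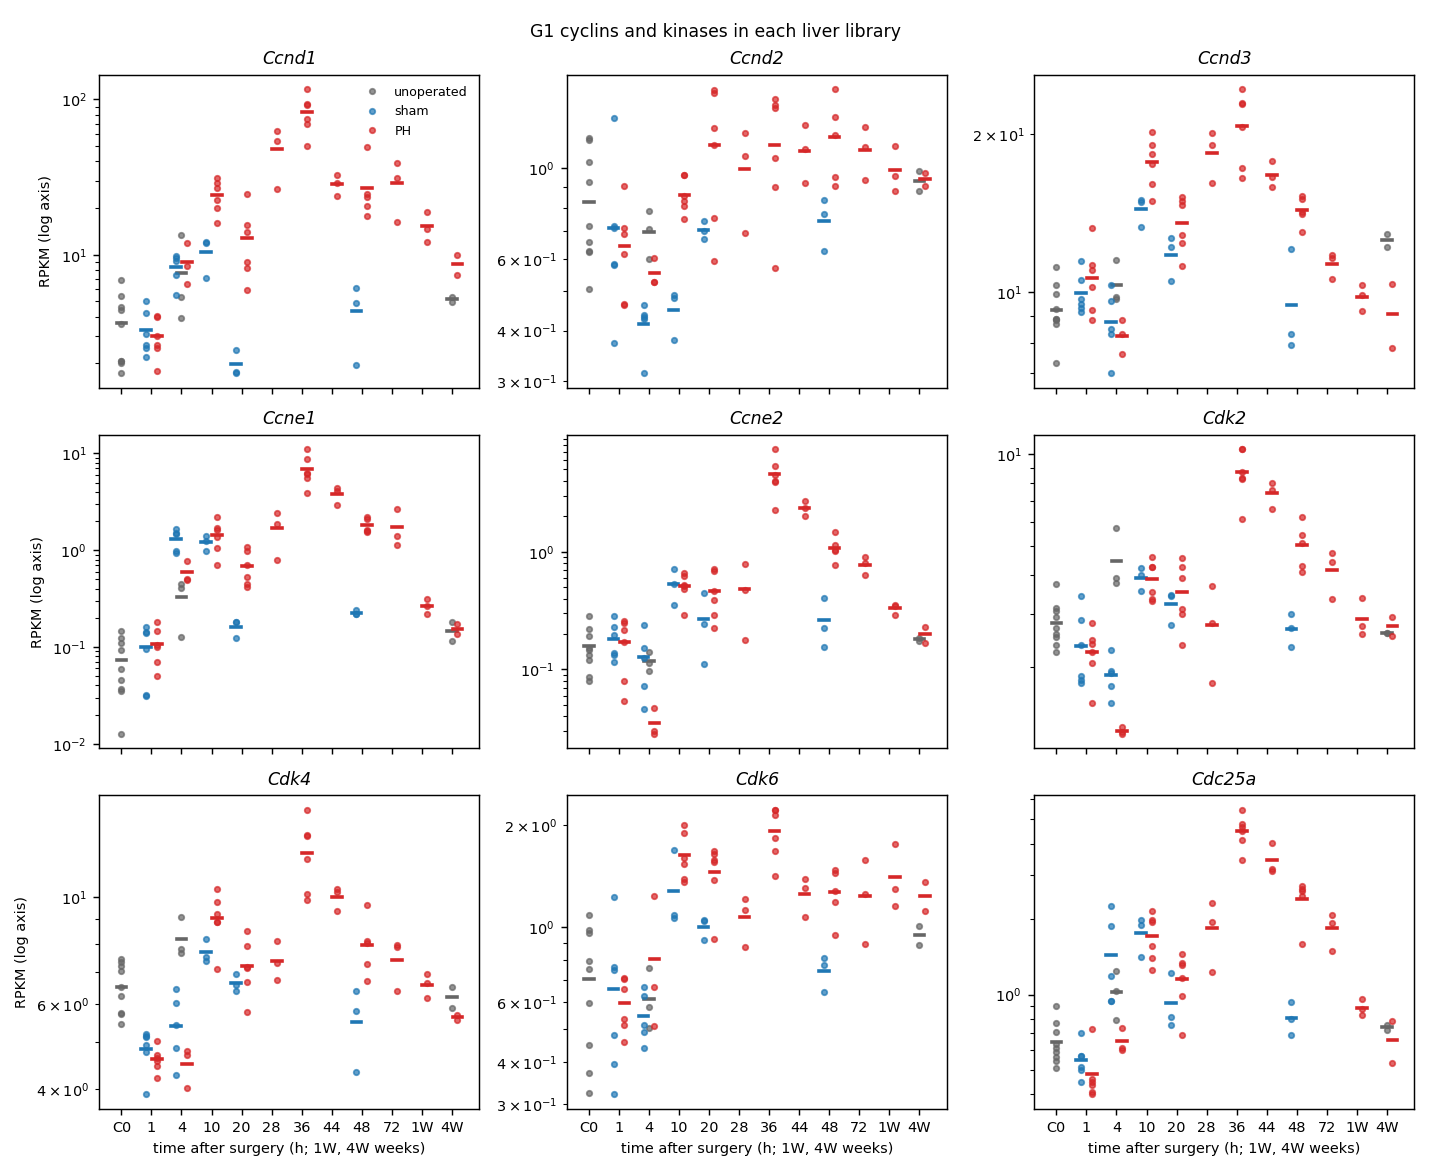
RPKM (log axis) of the 9 genes in each of the 80 libraries against time after surgery, for unoperated (grey), sham (blue) and post-PH (red) livers; points are libraries and short lines are group means. Post-PH means of Ccnd1, Ccne1, Ccne2, Cdk2, Cdk4, Cdk6, Cdc25a and Ccnd3 were highest at 36 h, and Ccnd2 kept within 0.414 and 1.19 RPKM in every group mean.

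The 250 bases before the start of 1 coding transcript of each member other than Ccnd1, the first by transcript name (mm9, GENCODE vM1), were searched on both strands for 4 motifs: E2F (TTTCCCGC, TTTCGCGC, TTTGCCGC, TTTGGCGC), AP-1 (TGACTCA), the cyclic AMP response element (TGACGTCA) and the E-box (CACGTG). No 2 of these words overlapped in a member. Of 22372 promoters of the same length, 2.20% held an E2F word, 3.79% an AP-1 word, 1.98% the cyclic AMP element and 6.60% an E-box. Cdk2 and Cdc25a each held 1 E2F word and Cdk4 held 4 E-boxes, whereas Ccnd2, Ccnd3, Ccne1, Ccne2 and Cdk6 held none of the 4 motifs. Of these, Ccnd3, Ccne2 and Cdk6 had that transcript start inside the annotated gene, and the windows of Ccne2 and Cdk6 overlapped their own exons. The GC box (GGGCGG), which 41.0% of promoters held, was searched as well and is not marked. Cdk2 held 5 of them, Ccne1 and Ccne2 4 each, Cdc25a 2, Ccnd3 and Cdk4 1 each, and Ccnd2 and Cdk6 none. These matches describe letters in a window and are not evidence of binding. The windows of the members with a match to 1 of the 4 motifs are given 5′ to 3′ on the strand of the gene with those matches in capitals. They lie at chr9:109777833-109778082 (plus strand) for Cdc25a, chr10:128142108-128142357 (minus) for Cdk2 and chr10:126500340-126500589 (plus) for Cdk4, all mm9, and overlap no annotated exon.
Cdc25a: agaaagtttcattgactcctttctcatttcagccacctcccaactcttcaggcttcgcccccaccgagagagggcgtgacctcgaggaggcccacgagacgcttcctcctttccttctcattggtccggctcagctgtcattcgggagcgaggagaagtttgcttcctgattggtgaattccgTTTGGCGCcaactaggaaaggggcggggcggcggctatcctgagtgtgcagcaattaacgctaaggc
Cdk2: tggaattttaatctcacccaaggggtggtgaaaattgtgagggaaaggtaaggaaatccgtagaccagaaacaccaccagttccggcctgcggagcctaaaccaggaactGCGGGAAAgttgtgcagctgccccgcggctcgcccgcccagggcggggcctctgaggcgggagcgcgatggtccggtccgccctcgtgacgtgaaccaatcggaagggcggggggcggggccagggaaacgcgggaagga
Cdk4: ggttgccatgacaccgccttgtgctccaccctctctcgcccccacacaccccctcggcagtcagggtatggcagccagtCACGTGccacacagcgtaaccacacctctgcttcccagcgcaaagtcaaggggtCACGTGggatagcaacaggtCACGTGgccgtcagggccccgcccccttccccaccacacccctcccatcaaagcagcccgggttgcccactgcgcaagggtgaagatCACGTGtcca
The E2F words lie 67 to 60 bases before the start in Cdc25a and 140 to 133 bases before it in Cdk2. The E-boxes of Cdk4 begin 171, 117, 97 and 10 bases before its start.

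Among the D cyclins, Ccnd1 spanned the widest range, from 1.98 RPKM in S20 to 82.8 RPKM in X36, a ratio of group means of 41.8. In C0 livers it ranged from 1.72 to 6.90 RPKM with a median of 3.56. At 10 h after PH it ranged from 16.1 to 31.3 RPKM (median 24.7), and at 20 h from 5.95 to 24.7 RPKM (median 11.5). The 3 livers at 28 h gave 54.2, 62.6 and 26.4 RPKM, and the 6 at 36 h ranged from 50.4 to 117 RPKM (median 83.2). No liver at 10, 28 or 36 h after PH overlapped the C0 range. Ccnd1 fell between 10 and 20 h by 1.02 ± 0.30 on the log2 scale (SE; limma, adjusted p = 0.0062) and rose again by 1.93 ± 0.37 from 20 to 28 h (adjusted p = 0.00011). Of the 9 members, 2 were called in the first of these steps (13.3% of all genes) and 3 in the second (10.3%). The fall at 20 h was uneven among libraries. Replicates 1 to 3 of X20 stood at 24.7, 15.5 and 14.0 RPKM and replicates 4 to 6 at 8.27, 5.95 and 9.02 RPKM, and the 2 sets of 3 did not overlap. The study collected livers in 3 periods, and the labels do not tie these replicate numbers to a period. By its supplement, X1, X10, X20 and X36 held 3 livers from each of 2 periods. S10 and S20 came from 1 of these alone, and X28, X44, X48, X72, X1W and S48 from the other alone. Comparisons such as X10 with S10 or X36 with X28 were thus unbalanced by period. Ccne1, the other member called in the step from 10 to 20 h, fell by 0.83 ± 0.20. The members called from 20 to 28 h beside Ccnd1 were Ccne1 (1.00 ± 0.24) and Cdc25a (0.56 ± 0.18). The Ccne1 call was lost without X28 replicate 2 (0.72, adjusted p = 0.083). The Cdc25a call was lost without X20 replicate 5 (0.45), X28 replicate 1 (0.39) or X28 replicate 2 (0.50), with adjusted p = 0.075 to 0.23. From 20 to 28 h both calls were also lost with replicates 1 to 3 of X20 and in a fit of these groups alone, while that of Ccnd1 held. With replicates 1 to 3 of X20, Cdk2 was called lower at 28 h (-0.63, limma adjusted p = 0.0085). For Ccnd1, with replicates 1 to 3 of each group of 6, the difference between 20 and 10 h was -0.42 ± 0.42 (adjusted p = 0.53), and with replicates 4 to 6 it was -1.62 ± 0.41 (adjusted p = 0.0038). For Ccne1 these values were -0.12 (adjusted p = 0.81), not called, and -1.54, called.

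Ccnd3 moved over a far narrower range, with group means from 8.24 RPKM in X4 to 20.7 RPKM in X36, a ratio of 2.52. It rose above C0 at 10 h after PH by 0.92 ± 0.09 on the log2 scale (adjusted p = 5.7e-14), when its libraries ranged from 14.9 to 20.2 RPKM, and at 36 h by 1.14 ± 0.09 (adjusted p = 9.1e-18). Sham livers at 10 h, with 13.3, 15.0 and 14.9 RPKM, had also risen above C0, by 0.63 ± 0.11 (adjusted p = 4.9e-06). Between PH and sham at 10 h the difference of Ccnd3 was 0.29 ± 0.12 and was not called (adjusted p = 0.11). By 72 h Ccnd3 stood at 11.6, 10.6 and 11.8 RPKM, and its difference from C0 of 0.29 ± 0.11 was below the limit for a call.

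Ccnd2 was called above C0 at none of the 11 post-PH times. Its largest post-PH mean was 1.19 ± 0.274 RPKM at 48 h (0.43 ± 0.16 above C0 on the log2 scale, adjusted p = 0.016, under the size limit). At 36 h its 6 libraries gave 1.43, 1.41, 1.47, 0.898, 0.569 and 1.06 RPKM, a difference of 0.35 ± 0.15 (adjusted p = 0.039, also under the size limit). That difference depended on the libraries used. With replicates 1 to 3 of each group of 6 it was called (0.68, adjusted p = 9.1e-05), as it was against C0 replicates 7 to 9 alone (0.51), while with replicates 4 to 6 it was 0.03 and after median scaling 0.01. The 20 h difference was likewise called with replicates 1 to 3 (0.65), and the 48 h difference against C0 replicates 7 to 9 (0.59) or without X48 replicate 4 (0.51). Ccnd2 fell after sham surgery. Its 5 libraries at 4 h after sham gave 0.436, 0.427, 0.431, 0.314 and 0.463 RPKM, all below the lowest C0 library at 0.507 RPKM, and its 3 at 10 h gave 0.488, 0.379 and 0.481 RPKM. The differences from C0 were -0.67 ± 0.16 (adjusted p = 0.00027) and -0.59 ± 0.19 (adjusted p = 0.0082), the latter lost without S10 replicate 2 (-0.52, adjusted p = 0.062). At 4 h after PH it stood at 0.527, 0.525 and 0.604 RPKM, above the sham libraries of that time, but differed by a call neither from C0 (-0.39 ± 0.19, adjusted p = 0.075) nor from sham (0.28 ± 0.21, adjusted p = 0.45). Post-PH livers at 10 h, with 0.751 to 0.964 RPKM, did not overlap the sham livers of that time. Ccnd2 was thus higher after PH than after sham at 10 h by 0.67 ± 0.20 (adjusted p = 0.021) while not differing detectably from C0 (0.08 ± 0.15, 95% interval -0.23 to 0.38). Without sham replicate 2 at 10 h that PH and sham difference was 0.60 (adjusted p = 0.13), and without replicate 3 it was 0.70 (adjusted p = 0.058).

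Because the D cyclins share Cdk4 and Cdk6, their transcripts were also expressed as shares of the summed D cyclin RPKM of each library. Ccnd3 made up 68.7% ± 7.79 of the sum in C0 and Ccnd1 25.3% ± 7.98 (SD, n = 9). At 36 h after PH the order was inverted, with 78.2% ± 5.69 for Ccnd1 and 20.7% ± 5.59 for Ccnd3 (n = 6). The highest share of Ccnd1 in a C0 library was 35.8% and the lowest in an X36 library 70.1%. The sum itself grew from 13.7 ± 2.89 to 105 ± 22.9 RPKM. At 10 h Ccnd1 made up 56.2% ± 5.60 after PH and 40.6% ± 7.96 after sham. At 4 h after PH the shares of Ccnd1 and Ccnd3 were 49.6 and 47.2%, and at 20 h 44.4 and 51.5%. By reads, not divided by transcript length, the mean share of Ccnd1 was larger in every group, so which of the 2 led depended on the unit where their shares were close. Sham livers at 20 h had the smallest share of Ccnd1, 13.7% ± 2.19 (n = 3), and Ccnd3 then made up 81.4% ± 2.41. By RPKM Ccnd2 was at most 6.06% of the sum in any group mean. At 4 weeks after PH the shares of Ccnd1 were 39.5 and 53.5%, against 28.9 and 26.4% in unoperated livers taken at that time.

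**Figure D2:**
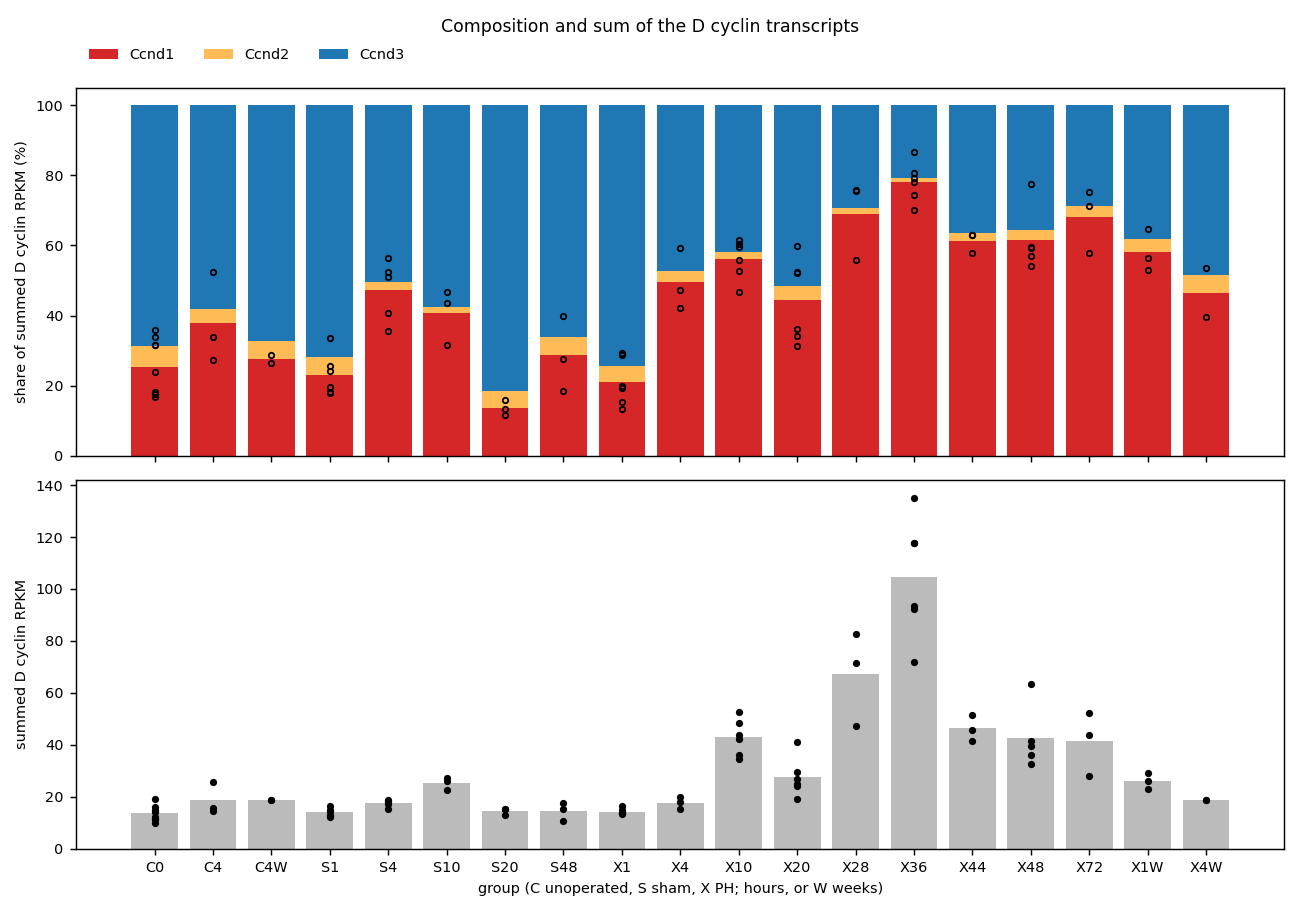
Upper panel: mean share (%) of Ccnd1 (red), Ccnd2 (yellow) and Ccnd3 (blue) in the summed D cyclin RPKM of each group, with open circles for the share of Ccnd1 in each library; lower panel: the sum in RPKM, bars for group means and points for libraries. The share of Ccnd1 was 25.3% in C0, 78.2% in X36 and 13.7% in S20.

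The E cyclins started from the lowest levels of the set and had the largest ratios between groups. Ccne1 ranged from 0.0126 to 0.147 RPKM in C0 livers and from 3.88 to 11.1 RPKM at 36 h after PH, with group means of 0.0733 and 6.96 RPKM. The C0 values rested on 1.00 to 9.97 estimated reads per library. On the log2 scale the rise was 4.42 ± 0.18 (adjusted p = 1.6e-31). Ccne1 also had an early rise, which at 4 h was larger after sham surgery. The 5 sham livers at 4 h gave 1.47, 0.981, 1.52, 1.67 and 0.936 RPKM and the 3 post-PH livers 0.769, 0.503 and 0.498 RPKM, with no overlap. At 10 h the 3 sham livers gave 1.25, 1.42 and 0.986 RPKM and the post-PH livers 0.696 to 2.18 RPKM (median 1.51), which overlapped. Unoperated livers taken at 4 h gave 0.128, 0.405 and 0.447 RPKM. At 20 h Ccne1 was back at 0.180, 0.181 and 0.123 RPKM after sham surgery and at 0.416 to 1.08 RPKM after PH.

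Ccne2 kept a different schedule from Ccne1. In the 3 livers at 4 h after PH it stood at 0.0284, 0.0303 and 0.0474 RPKM, below every C0 library (0.0801 to 0.283 RPKM), although these values rested on 3.00 to 4.99 estimated reads and the difference of -0.50 ± 0.21 was not called. At 28 h it was at 0.476, 0.783 and 0.179 RPKM and at 36 h at 2.24 to 7.42 RPKM (median 4.24). Its step from 28 to 36 h was the largest of the 9 members, 2.74 ± 0.23 (adjusted p = 6.1e-16), against 1.92 ± 0.24 for Ccne1 (adjusted p = 1.8e-09) and 0.83 ± 0.37 for Ccnd1 (adjusted p = 0.079, not called). The Ccnd1 result depended on the setting. It was called by limma with replicates 1 to 3 of each group of 6 (1.16, adjusted p = 0.030). It was also called with the replicate number as a block (1.13, adjusted p = 0.0063) and without X36 replicate 4 (0.97, adjusted p = 0.043). After median scaling no D cyclin was called from 28 to 36 h. In this step 6 of 9 members were called, all higher (18.1% of all genes): Ccne1, Ccne2, Cdk2, Cdk4, Cdk6 and Cdc25a. The Cdk6 call was lost without X28 replicate 1 (0.60, adjusted p = 0.061). After median scaling 4 of 9 members stayed called, and Cdk4 and Cdk6 (0.42 each) fell under the size limit. From 36 to 44 h the 3 called members all fell (9.52% of all genes were called), namely Ccnd1 (to 32.5, 24.01 and 28.8 RPKM), Ccne1 by 0.77 and Ccne2 by 0.82 on the log2 scale. The Ccne1 call in that step rested on single libraries: without X36 replicate 1 or 6, or X44 replicate 1 or 3, it was not called (-0.83 to -0.60, adjusted p = 0.051 to 0.15). The Ccne2 call was lost without X44 replicate 3 (-0.72, adjusted p = 0.056). From 36 to 44 h both calls were also lost with replicates 1 to 3 of X36 and in a fit of these groups alone, while that of Ccnd1 held.

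Among the kinases, Cdk2, the partner of the E cyclins, changed most. At 4 h after PH it was at 1.28, 1.23 and 1.21 RPKM, below every library of the other groups, whose lowest value was 1.53 RPKM. Against C0 it was lower by -1.02 ± 0.17 (adjusted p = 3.7e-07). Its libraries then ranged from 6.12 to 10.4 RPKM at 36 h, 1.54 ± 0.13 above C0 (adjusted p = 2.3e-16). At 28 h, with 3.69, 2.79 and 1.78 RPKM, it did not differ detectably from C0 (-0.06 ± 0.17, 95% interval -0.39 to 0.27). Cdk4, a partner of the D cyclins, ranged from 5.46 to 7.44 RPKM in C0 and from 9.86 to 15.2 RPKM at 36 h, 0.89 ± 0.09 above C0 (adjusted p = 1.2e-13). Cdk6, the other partner of the D cyclins, was at 1.42 to 2.22 RPKM at 36 h, 1.23 ± 0.16 above C0 (adjusted p = 4.1e-10).

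Cdk6 was the only kinase called above C0 at 1 and 4 weeks, with 1.16, 1.30 and 1.76 RPKM at 1 week (0.84 ± 0.20, adjusted p = 0.00071) and 1.12 and 1.36 RPKM at 4 weeks (0.70 ± 0.23, adjusted p = 0.041). The C0 group was split for this gene. Replicates 1 to 6 of C0 ranged from 0.597 to 1.08 RPKM and replicates 7 to 9 from 0.325 to 0.449 RPKM. Against replicates 1 to 6 alone, Cdk6 lost its call at 28, 44, 48 and 72 h and at 4 weeks after PH (0.25 to 0.45). The 4-week call was also lost without C0 replicate 7, 8 or 9 or either X4W library (0.58 to 0.82, adjusted p = 0.072 to 0.43). The 28 h call was lost without any 1 of the same C0 replicates or X28 replicate 2 or 3 (0.44 to 0.49), and the 72 h call without X72 replicate 3 (0.52, adjusted p = 0.063). Unoperated livers taken at 4 weeks gave 1.01 and 0.887 RPKM, and against these the difference at 4 weeks was 0.31 ± 0.30 (adjusted p = 1.0).

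Cdc25a, the activating phosphatase, ranged from 0.510 to 0.900 RPKM in C0, from 1.26 to 2.16 RPKM at 10 h after PH and from 3.43 to 5.46 RPKM at 36 h, 2.40 ± 0.14 above C0 (adjusted p = 1.6e-24). At 4 h after sham surgery it gave 1.88, 1.18, 2.26, 0.942 and 0.940 RPKM against 0.738, 0.603 and 0.612 RPKM after PH, with no overlap. Over the 19 group means its Pearson correlation with Ccne1 was 0.96, the highest among the pairs of members, followed by 0.92 for Cdk2 with Cdk4 and 0.90 for Cdc25a with Ccne2. Ccnd1 was most alike to Ccne1 among the members (0.885), and Ccnd2 had no value above 0.64. These correlations describe 19 points that share depth, surgery periods and the change at 36 h.

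Relative to its own mean at 36 h after PH, the genes stood at different levels in the times around it. At 28 h Ccnd1 had reached 57.7% of that mean and Ccnd3 88.8%, whereas Ccne1 had reached 24.4%, Ccne2 10.5%, Cdk2 31.7% and Cdc25a 40.8%. At 44 h Ccnd1 was down to 34.3%, while Ccne1 stood at 54.9%, Ccne2 at 51.5%, Cdc25a at 76.4% and Cdk2 at 85.4%. Ccnd1 was thus nearer to its 36 h mean than the E cyclins at 28 h and farther from it at 44 h.

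**Figure D3:**
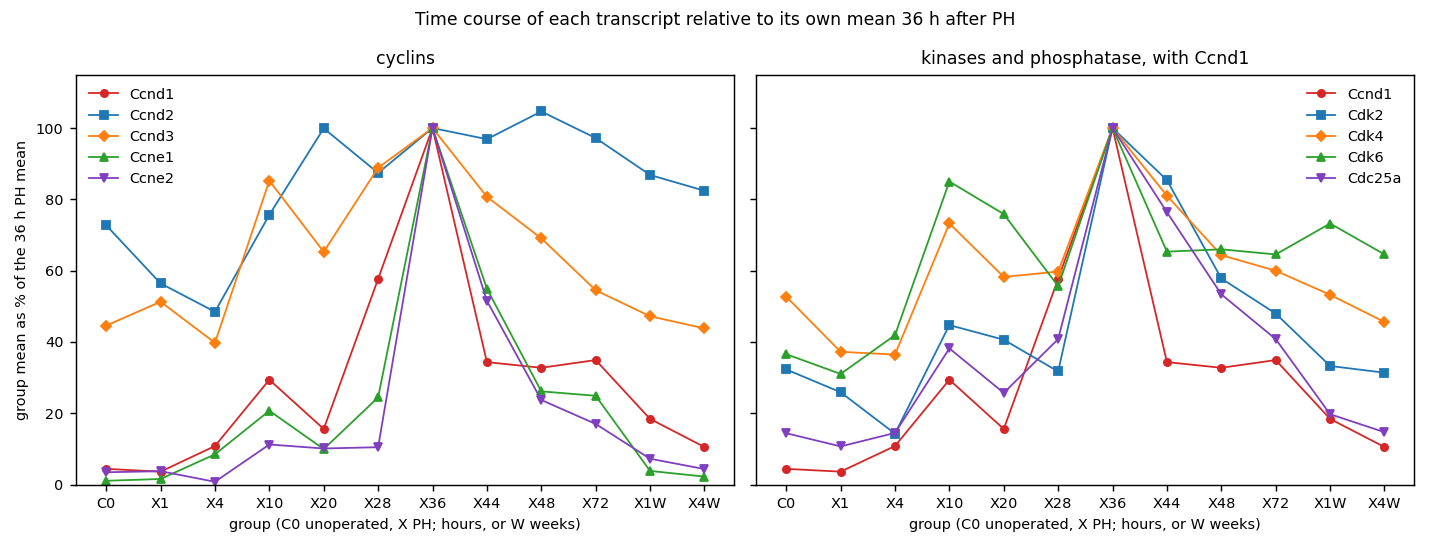
Group means of unoperated (C0) and post-PH livers as a percentage of the mean 36 h after PH, for the cyclins (left) and for the kinases and Cdc25a with Ccnd1 (right); lines join group means and time is not to scale. At 28 h Ccnd1 stood at 57.7%, Ccne1 at 24.4% and Ccne2 at 10.5%.

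The part of this order from 28 to 36 h was examined in single livers. The log2 ratio of each other member to Ccnd1 within a library was taken as the difference of their log2(RPKM + 0.25) values. These ratios were also compared between PH and sham, which does not bear on the order, and were not compared between 36 and 44 h. The ratio test was chosen after the values had been seen, 32 ratios were compared with two-sided exact permutation tests over libraries, and the p-values are not adjusted. From 28 to 36 h the ratio of Ccne2 to Ccnd1 rose from -6.04 ± 0.17 (SD, n = 3) to -4.14 ± 0.85 (n = 6), without overlap (exact p = 0.0119, the smallest these group sizes allow). It was the only 1 of 8 members whose ratio rose without overlap, and 0.676% of all genes did so. For Ccne1 the ratios overlapped (-4.63 ± 0.07 and -3.55 ± 0.71, exact p = 0.0714). Between PH and sham at 20 h all 8 members had lower ratios to Ccnd1 after PH without overlap, but so had 97.2% of all genes, as Ccnd1 itself had changed. For Ccne1 the lack of overlap rested on the added 0.25 RPKM, which exceeded its sham values (0.123 to 0.181 RPKM). In RPKM, S20 replicate 3 (0.123 for Ccne1 and 2.45 for Ccnd1) had a lower ratio than the X20 means (0.692 and 12.9). At 10 h lower ratios without overlap were found in 6 of 8 members (79.8% of all genes). At 48 h they were found in 6 of 8 (94.9% of all genes), and the E cyclins were the exceptions: the ratio of Ccne1 to Ccnd1 was -3.64 ± 0.63 after PH and -3.13 ± 0.80 after sham (exact p = 0.518), and that of Ccne2 -4.28 ± 0.62 and -3.05 ± 0.88 (exact p = 0.0714). The added 0.25 RPKM exceeded the S48 values of Ccne1 (0.217 to 0.241 RPKM), and the direction of its ratio depended on it. In RPKM the means were 1.82 for Ccne1 and 27.1 for Ccnd1 in X48. They were 0.226 and 4.31 in S48, so that the ratio of means was higher after PH.

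PH and sham livers at matched times were compared to separate resection from laparotomy. At 1 h none of the 9 members was called by limma, and 0.65% of all genes were. An unadjusted limma p below 0.05 was found for 0 of 9 members and for 1430 of the 15396 genes. The largest difference was -0.14 ± 0.15 for Cdc25a, with a 95% interval of -0.44 to 0.16.

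At 4 h, 3 of 9 members were called, all lower after PH than after sham, against 8.64% of all genes. By the study's supplement, X4 and S4 livers each came from 2 collection periods. Only X4 replicates 4 to 6 had values here, beside S4 replicates 1 to 5. The labels do not tie these numbers to a period, so its balance is unknown here and in other comparisons of X4. Cdc25a was higher in S4 replicates 1 to 3 than in 4 and 5. Ccne1 was lower by -0.89 ± 0.25 (adjusted p = 0.0093), Cdc25a by -0.84 ± 0.19 (adjusted p = 0.00094) and Cdk2 by -0.51 ± 0.18 (adjusted p = 0.049). Ccnd1 did not differ detectably (0.09 ± 0.38, 95% interval -0.66 to 0.85), with 9.58, 9.13, 7.40, 5.51 and 9.88 RPKM after sham and 11.9, 6.45 and 8.48 RPKM after PH. The Ccne1 call was lost without X4 replicate 5 (-0.82, adjusted p = 0.059) or replicate 6 (-0.81, adjusted p = 0.064), and the Cdk2 call in 7 of 8 omissions of 1 library (-0.53 to -0.44, adjusted p = 0.054 to 0.14; it held without S4 replicate 2). In a fit of these groups alone the Cdc25a difference was the same size with an adjusted p of 0.099.

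At 10 h, 2 of 9 members were called, both D cyclins and both higher after PH, against 7.02% of all genes. Ccnd1 was at 12.1, 11.8 and 7.10 RPKM after sham, below every post-PH liver of that time, a difference of 1.22 ± 0.37 (adjusted p = 0.019). Ccnd2 has been described above. Without sham replicate 3 the Ccnd1 difference was 0.97 (adjusted p = 0.17), with replicates 1 to 3 of X10 it was 1.21 (adjusted p = 0.043) and with replicates 4 to 6 it was 1.23 (adjusted p = 0.052). The other 7 members were not called, with 95% intervals of -0.33 to 0.63 for Ccne1, -0.48 to 0.42 for Ccne2 and -0.41 to 0.32 for Cdc25a. Stellate cell markers summed to 44.7 to 56.0 RPKM in X10 and 28.7 to 41.7 RPKM in S10, without overlap and with 1 of 6 called higher, and their part in the differences was not tested.

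At 20 h the called members were Ccnd1 and Ccne1, 2 of 9 against 7.11% of all genes. Ccnd1 had fallen to 1.74, 1.75 and 2.45 RPKM after sham, while no post-PH liver was below 5.95 RPKM, and the difference was 2.42 ± 0.37 (adjusted p = 5.6e-06). Ccne1 was higher after PH by 1.15 ± 0.24 (adjusted p = 0.00084). Both calls held with replicates 1 to 3 of X20 and with replicates 4 to 6 (1.84 for Ccnd1 and 0.79 for Ccne1). Cdk2 and Cdk4 showed no detectable difference, with intervals of -0.25 to 0.45 and -0.13 to 0.34. With replicates 1 to 3 of X20, Ccnd2 (0.79, adjusted p = 0.0022) and Ccne2 (0.79, adjusted p = 0.017) were called as well, and Ccnd2 also without X20 replicate 5 (0.62, adjusted p = 0.029). Stellate cell markers summed to 54.3 to 75.6 RPKM in X20 and 31.2 to 51.1 RPKM in S20, with 3 of 6 called higher, and hepatocyte markers to 27003 to 35761 and 37043 to 40316 RPKM, with 1 of 6 called higher. Neither sum overlapped between the groups. After median scaling 2 of 6 stellate cell markers were called higher, and of the hepatocyte markers 1 was called higher and 1 lower. The part of these markers in the differences was not tested.

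At 48 h all 9 members were called, all higher after PH, against 27.2% of all genes in either direction and 24.5% called higher. Ccnd1 was at 49.3, 23.5, 20.5, 17.6 and 24.6 RPKM after PH and at 1.95, 4.89 and 6.10 RPKM after sham (2.62 ± 0.38, adjusted p = 4.6e-08). Ccne1 gave 1.60, 2.11, 1.55, 1.63 and 2.21 RPKM against 0.218, 0.241 and 0.217 RPKM (2.11 ± 0.25, adjusted p = 1.5e-10), and Ccne2 1.02, 1.01, 0.771, 1.14 and 1.48 RPKM against 0.224, 0.407 and 0.154 RPKM (1.39 ± 0.23, adjusted p = 1.4e-06). Cdc25a was higher by 1.31 ± 0.19 (adjusted p = 4.4e-08) and Cdk2 by 0.84 ± 0.18 (adjusted p = 0.00012). The groups did not overlap for any of the 9 genes, and how many of all genes did not overlap was not counted. The whole distribution of values differed at this time: 3773 of all genes were called higher and 414 lower, with a median difference of 0.27. After a median scaling of the libraries, which lowered each difference by 0.45, 1020 genes were called higher and 2304 lower, and 4 of 9 members stayed called, Ccnd1 (2.17), Ccne1 (1.66), Ccne2 (0.95) and Cdc25a (0.86). Ccnd2, Ccnd3, Cdk2, Cdk4 and Cdk6, with 0.52, 0.61, 0.84, 0.52 and 0.60 before scaling, had 0.08, 0.17, 0.39, 0.07 and 0.15 after it. Without sham replicate 1 the calls of Ccnd2 (0.43, adjusted p = 0.16), Cdk4 (0.36, under the size limit) and Cdk6 (0.53, adjusted p = 0.095) were lost too. Without X48 replicate 5 those of Ccnd2 (0.43, adjusted p = 0.11) and Cdk4 (0.45, under the size limit) were lost. That of Ccnd2 was also lost without sham replicate 2 (0.54, adjusted p = 0.065) and without X48 replicate 1 (0.51, adjusted p = 0.054) or 3 (0.48, adjusted p = 0.070). Stellate cell markers summed to 49.9 to 88.7 RPKM in X48 and 46.3 to 50.01 RPKM in S48, with 3 of 6 called higher, and hepatocyte markers to 34436 to 40195 and 40717 to 49998 RPKM, with 2 of 6 called lower. Macrophage markers summed to 25.6 to 49.1 and 31.1 to 54.7 RPKM with none of 6 called. Cholangiocyte markers summed to 31.7 to 44.4 RPKM in X48 and 19.6 to 29.5 RPKM in S48, with 1 of 5 called higher, and endothelial markers to 8.82 to 11.9 and 12.3 to 12.97 RPKM, with none of 6 called; neither sum overlapped. None of the defining markers of the first 3 lists was at 0. After median scaling 6 of 6 hepatocyte, 4 of 6 endothelial and 1 of 6 macrophage markers were called lower. In the same setting 1 of 6 stellate cell markers was called higher and no cholangiocyte marker was called. The part of all 5 lists in the differences was not tested.

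**Figure D4:**
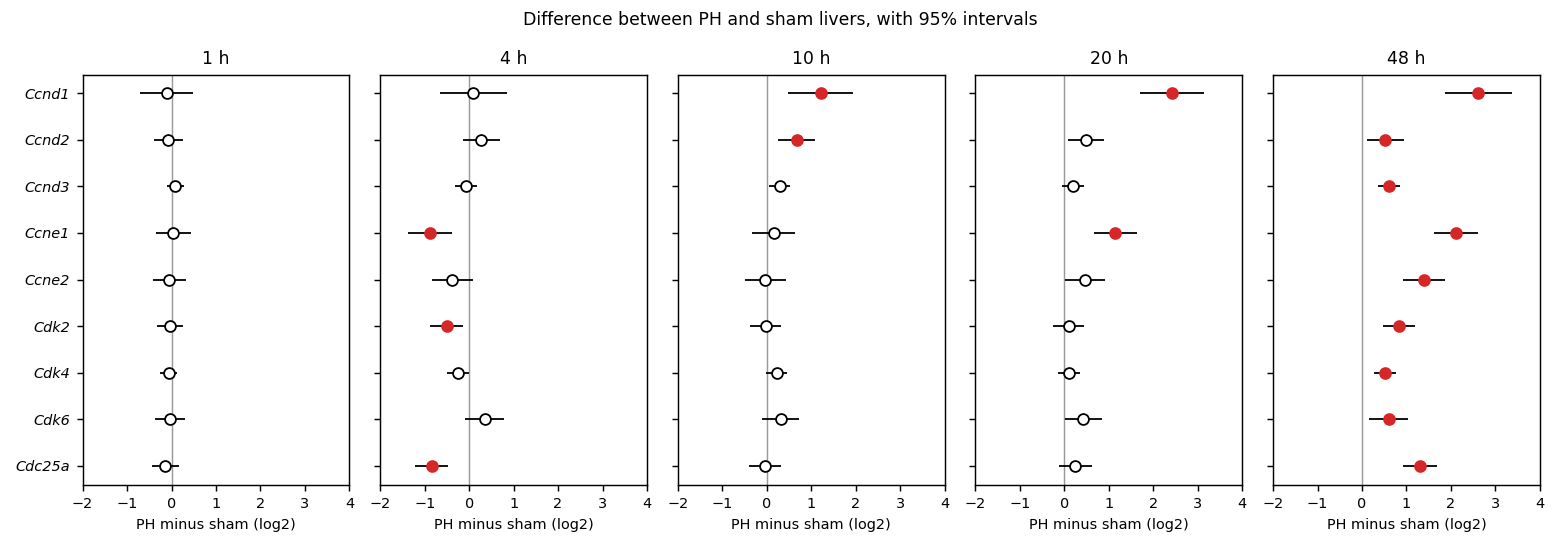
Difference between post-PH and sham livers of the same time for each gene, as log2(RPKM + 0.25), with 95% intervals from the model; filled red points were called and open points were not. At 10 h only Ccnd1 (1.22) and Ccnd2 (0.67) were called, at 20 h Ccnd1 (2.42) and Ccne1 (1.15), and at 48 h all 9.

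The change of the PH and sham difference between times was itself tested. From 10 to 48 h it grew for 5 of 9 members (23.1% of all genes were called): Ccne1 by 1.96 ± 0.35 (adjusted p = 1e-05), Ccne2 by 1.42 ± 0.32 (adjusted p = 0.00056), Ccnd1 by 1.40 ± 0.53 (adjusted p = 0.038), Cdc25a by 1.36 ± 0.26 (adjusted p = 5.2e-05) and Cdk2 by 0.86 ± 0.25 (adjusted p = 0.0075). From 20 to 48 h it grew for 4 of 9 (13.2% of all genes), Ccne1, Ccne2, Cdk2 and Cdc25a, and for Ccnd1 it was 0.20 ± 0.53 (95% interval -0.85 to 1.25). After median scaling, 3 of the first 5 calls held (those of Ccne1, Ccne2 and Cdc25a) and none of the last 4. Omitting 1 library ended the Ccnd1 call from 10 to 48 h in 6 of 17 cases (0.94 to 1.35, adjusted p = 0.054 to 0.23), namely S10 replicates 1 and 2, S48 replicate 1, X10 replicates 3 and 4 and X48 replicate 1. It ended the calls from 20 to 48 h of Ccne1 in 13 of 17 cases and those of Ccne2 and Cdk2 in 9 of 17 each (adjusted p from 0.052 to 0.18), and that of Cdc25a in none. Between 10 and 20 h limma called no member (0.104% of all genes), with 1.20 ± 0.52 for Ccnd1 (adjusted p = 0.42) and 0.99 ± 0.34 for Ccne1 (adjusted p = 0.24). For this change an unadjusted limma p below 0.05 was found for 2 of 9 members and for 1446 of the 15396 genes. With replicates 1 to 3 of the groups of 6, Ccne1 was called in that change (1.70, adjusted p = 0.022). By the study's supplement, sham livers at 10 and 20 h came from 1 collection period, and PH and sham livers at 48 h from another. Post-PH livers at 10 and 20 h came from both. In the changes to 48 h, time and period thus cannot be told apart.

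Against unoperated C0 livers 6 of 9 members were higher at 10 h after PH and 8 of 9 at 36 h. None was called by limma at 1 h (13.5% of all genes), and Cdk4 was lower by -0.47 ± 0.09 (adjusted p = 2.1e-05, under the size limit). An unadjusted limma p below 0.05 at 1 h was found for 4 of 9 members and for 6947 of the 15396 genes. At 4 h Ccnd1 (1.34 ± 0.34) and Ccne1 (1.37 ± 0.23) were higher and Cdk2 and Cdk4 (-0.50 ± 0.11) lower, 4 of 9 against 38.2% of all genes. The Cdk4 call was lost without C0 replicate 1, 7, 8 or 9 or X4 replicate 5 (-0.49 to -0.43, under the size limit). At 10 h 6 of 9 were called, all higher (36.4% of all genes): Ccnd1 (2.77), Ccne1 (2.34), Cdc25a (1.12), Cdk6 (1.03), Ccnd3 (0.92) and Ccne2 (0.90). The same 6 were called at 20 h (24.1%) and at 28 h (24.9%). At 36 h and at 44 h 8 of 9 were called, all but Ccnd2 (35% and 39.2% of all genes), at 48 h 7 of 9 (38.1%), at 72 h 6 of 9 (33.2%), at 1 week 4 of 9 (16.9%) and at 4 weeks 2 of 9 (5.62%). At 20 h the Ccnd3 call was lost without C0 replicate 4 (0.50, under the size limit) and with replicates 1 to 3 of the groups of 6 (0.48), the Ccne2 call with replicates 4 to 6 (0.44, adjusted p = 0.072), and the Cdc25a call with replicates 4 to 6 (0.46) or C0 replicates 7 to 9 alone (0.49). Single libraries decided several late calls: Ccne2 at 28 h (0.47 without X28 replicate 2), Cdk2 at 72 h (0.44 to 0.50 without C0 replicate 7 or X72 replicate 1 or 3), Ccne1 at 1 week (0.68 and 0.62 without X1W replicate 1 and 3), Ccne2 at 1 week (lost in 9 of 12 omissions) and Ccnd1 at 4 weeks (1.55 and 1.12 without X4W replicate 1 and 2, adjusted p = 0.13 and 0.36). After median scaling the counts of members called were 6 at 10 h, 4 at 20 h, 5 at 28 h, 8 at 36 h, 5 at 44 h, 4 at 48 h, 4 at 72 h, 2 at 1 week and 2 at 4 weeks. Of the 15396 genes tested, 1214 were then called higher and 2304 lower at 20 h, and 1826 and 2026 at 28 h. At 44 h these counts were 1699 and 4334, at 48 h 1550 and 4084 and at 72 h 1686 and 3039. At 1 week they were 779 and 1633, and at 4 weeks 268 and 747. Those at 10 and 36 h follow. That scaling lowered the differences from C0 by 0.20 at 10 h, 0.34 at 36 h and 0.47 at 44 h. It moved the share of higher calls among all genes by over 10 percentage points in 36 of 43 comparisons, for instance from 3964 higher and 1430 lower to 1877 and 3742 at 36 h, and from 3266 and 2336 to 2023 and 3619 at 10 h. From 28 to 36 h it went from 2326 and 467 to 969 and 1584, between PH and sham at 20 h from 692 and 402 to 453 and 624, and at 4 h from 486 and 844 to 645 and 694. From 72 h to 1 week Ccne1 fell by 1.87, Cdc25a by 0.87 and Ccne2 by 0.82, 3 of 9 called against 16.3% of all genes. The Ccne2 call in that step was lost without X72 replicate 1 or 3 or X1W replicate 2 (-0.80 to -0.73, adjusted p = 0.056 to 0.069).

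Sham livers shared the early rise. No member was called against C0 at 1 h after sham (7.77% of all genes), 5 of 9 were at 4 h (34.4%) and 7 of 9 at 10 h (29.1%), and none was at 20 h (12.1%) or 48 h (8.88%). At 1, 20 and 48 h, 1, 3 and 2 of 9 had an unadjusted limma p below 0.05. So had 5714, 5578 and 4803 of the 15396 genes. The 4 h calls were Ccne1 (2.26 ± 0.19), Ccnd1 (1.25 ± 0.29) and Cdc25a (0.86 ± 0.14) higher and Ccnd2 and Cdk2 (-0.51 ± 0.14) lower, the Cdk2 call falling under the size limit without C0 replicate 6, 8 or 9 or S4 replicate 1 or 2. The 10 h calls were Ccne1 (2.18 ± 0.23), Ccnd1 (1.55 ± 0.34), Cdc25a (1.17 ± 0.17), Ccne2 (0.93 ± 0.21), Cdk6 (0.72 ± 0.20) and Ccnd3 (0.63 ± 0.11) higher and Ccnd2 lower, and that of Cdk6 was lost without S10 replicate 3 (0.54, adjusted p = 0.054). These comparisons and those of post-PH livers share the C0 libraries. From 4 to 10 h after sham 5 of 9 members rose (27.5% of all genes were called), Ccne2 by 1.05, Cdk2 by 0.98, Cdk6 by 0.92, Ccnd3 by 0.71 and Cdk4 by 0.50 (0.42 to 0.47 without S4 replicate 1 or 2 or S10 replicate 3, under the size limit). From 10 to 20 h 3 of 9 fell (10.6%), Ccnd1 by 2.22, Ccne1 by 1.83 and Cdc25a by 0.78 on the log2 scale (-0.68 without S20 replicate 1, adjusted p = 0.054).

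Unoperated livers at 4 h (ZT6) had 3 of 9 members called above those at 0 h (ZT2), against 7.89% of all genes: Ccnd1 (0.96 ± 0.34), Ccne1 (0.80 ± 0.23) and Cdk2 (0.62 ± 0.17). The 3 C4 libraries of Ccnd1 gave 3.93, 13.5 and 5.34 RPKM, and without replicate 2 the difference was 0.46 (adjusted p = 0.56). That call was also lost without C4 replicate 3 or C0 replicate 4, 5, 6 or 9, the Ccne1 call without C4 replicate 2 or 3 (0.68 and 0.63) and the Cdk2 call without C4 replicate 2 (0.44). None of the 3 calls held against C0 replicates 7 to 9 alone (1.00 for Ccnd1, 0.68 for Ccne1 and 0.53 for Cdk2, adjusted p = 0.18 to 0.22), and in a fit of these groups alone those of Ccnd1 (adjusted p = 0.24) and Cdk2 (adjusted p = 0.057) were lost. The study collected C4 livers in 1 period and C0 livers in several, and the labels do not tie replicate numbers to periods, so the hour and the period cannot be told apart. Against C4, sham livers of the same hour were higher in Ccne1 (1.46 ± 0.25) and lower in Cdk2 (-1.13 ± 0.18), Cdk4 (-0.59 ± 0.12) and Ccnd2 (-0.51 ± 0.21, lost without C4 replicate 1 or 2 or S4 replicate 4), 4 of 9 with 43.3% of all genes called. Post-PH livers were lower than C4 in Cdk2 (-1.64 ± 0.20) and Cdk4 (-0.83 ± 0.14), 2 of 9 with 45.6% of all genes called. In neither did Ccnd1 differ detectably from C4 (0.29 ± 0.38 and 0.38 ± 0.42). At 4 weeks after PH no member was called against unoperated livers of that time (0.065% of all genes; 1 of 9 had an unadjusted limma p below 0.05), and Ccnd1, at 7.39 and 10.0 against 5.35 and 4.95 RPKM, differed by 0.72 ± 0.52 with an interval of -0.32 to 1.75.

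Genes around the G1 kinases were taken from 6 lists. Their counts stand against 8.64% of all genes called between PH and sham at 4 h, 7.02% at 10 h, 7.11% at 20 h, 27.2% at 48 h (24.5% called higher) and 18.1% from 28 to 36 h. Of 7 CDK inhibitors, 5 were tested. Cdkn1a (p21) was higher after PH than sham at 10 h by 2.97 (adjusted p = 0.0012) and at 20 h by 2.56 (adjusted p = 0.0056), and Cdkn2d was lower at 10 h by -0.81. At 48 h 3 of 5 were called, all higher, Cdkn2c by 3.21, Cdkn2d by 2.44 and Cdkn1b (p27) by 1.13, and the list's median difference was 1.13 against 0.27 for all genes. All 3 stayed called after median scaling (2.77, 1.99 and 0.68). At 4 h Cdkn1b was the only inhibitor called, and it was lower by -0.86 (adjusted p = 9.0e-07). None of the 3 genes of the CDK-activating kinase (Cdk7, Ccnh, Mnat1) was called between PH and sham at any of the 5 times.

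The 13 genes of the pocket proteins and E2F family, the targets of the G1 kinases and their partners, had 9 called higher after PH at 48 h and none lower, with a median of 0.74. Rbl1, a pocket protein, was higher by 2.86, E2f2 by 1.95 and E2f1 by 1.84. At 10 h E2f1 was lower after PH than after sham by -0.74 (adjusted p = 0.019) and Tfdp2, an E2F partner, by -0.62. From 28 to 36 h after PH 9 of the 13 rose. After median scaling 6 of 13 were called higher at 48 h (median 0.29) and 6 of 13 from 28 to 36 h (median 0.35). Of 11 tested genes that turn over G1 cyclins and inhibitors, 3 were higher at 48 h, with a median of 0.42: Cks1b by 2.44, Skp2, which marks p27 for breakdown, by 1.12 and Fbxo4 by 0.52. After median scaling the first 2 stayed called and Fbxo4 was at 0.07, with a median of -0.03 for the list. At 4 h Cks1b was lower after PH by -1.21 (adjusted p = 0.0018).

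Of 13 genes of replication origins and S phase, 7 were higher after PH than sham at 20 h (median 1.03 against 0.07 for all genes), among them Mcm5 by 1.79 and Mcm6 by 1.71, and all 13 at 48 h (median 2.11). Of the 7 S and M phase cyclins, kinase and phosphatases, 2 were higher at 20 h, Cdk1 by 0.86 and Ccna2 by 0.81, and all 7 at 48 h (median 5.68), with Ccnb2 at 6.31, Ccnb1 at 5.95 and Cdk1 at 5.78. From 28 to 36 h all 13 replication genes rose (median 2.38), and 6 of the 7 S and M phase genes did. These counts at 48 h and from 28 to 36 h were the same after median scaling, with medians of 1.66 and 2.09 for the replication genes, while at 20 h 1 of the 7 S and M phase genes was called. At 10 h, when Ccnd1 and Ccnd2 differed between PH and sham, 1 of the 13 replication genes was called (Mcm3, 0.95, adjusted p = 0.032) and none of the 7 S and M phase genes.

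Among 10560 protein-coding genes with a group mean above 1 RPKM, the 3 whose group means over the 19 groups were most alike to each member were listed by Pearson correlation of log2(RPKM + 0.25). Those of Ccne2 were Psmc3ip (0.96), Tubgcp2 (0.96) and Brca1 (0.96), and those of Cdk2 were Rfc3, a subunit of the clamp loader of replication (0.96), Gmnn, which restrains replication licensing (0.96), and Cyb5r1 (0.95). Ccne1 had Cdc25a (0.96), Orc2 of the origin recognition complex (0.96) and Naa50 (0.95), and Cdc25a had Fbxl14 (0.96), Ccne1 (0.96) and the E2F partner Tfdp1 (0.95). Cdk4 had the nuclease Dna2 (0.94), Pold3 of DNA polymerase delta (0.93) and Pitpna (0.93). The D cyclins and Cdk6 had other neighbours. Ccnd1 had Nab1 (0.94), Gm9797 (0.92) and Afg3l2 (0.91), Ccnd2 had Mpp1 (0.91), Fstl1 (0.89) and Usp4 (0.89), Ccnd3 had Tor1b (0.92), Tor1a (0.91) and Wsb2 (0.91), and Cdk6 had 9130023H24Rik (0.95), AI314180 (0.94) and Scamp5 (0.93). Brca1 went from 0.13 RPKM in C0 to 0.56 RPKM at 28 h and 3.23 RPKM at 36 h, and Gmnn from 2.60 to 2.41 and 12.7 RPKM, whereas Nab1 was at 11.5, 19.1 and 22.6 RPKM.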

How the data were processed

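Poly(A) RNA from individual livers was sequenced as stranded single-end libraries. The authors trimmed reads with Cutadapt and prinseq-lite, aligned them to mm9 with TopHat2 2.0.13 and Bowtie2, processed alignments with SAMtools 0.1.19, counted reads per Ensembl gene with featureCounts, dividing a multi-mapped read among its positions, and deposited log2 RPKM values, in which genes without reads stand at -14.29 (52.9% of values). Read counts were not used: low values lay within 0.05 of a whole read in 76.1% of cases (median over libraries). The lowest was X28 replicate 2 at 37.0%, and the next lowest library was at 72.6%. Values of X28 replicate 2 differed from those of replicates 1 and 3 in 22925 and 22886 genes. Replicates 1 and 3 differed from each other in 18741 genes. Why this library stood apart was not tested, and the calls lost without X28 replicate 2 are given above.

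Groups came from the labels. Of 84 value columns, 80 matched a labelled sample and 4 did not and were left out. Of 87 labelled samples, 7 had no matching column and were not analysed here (3 of X4, 1 of X4W and all 3 at 60 h after PH). Replicates are individual livers, no pair of libraries in a group held the same values, and p-values measure the spread between these livers.

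Values were converted to log2(RPKM + 0.25) and fitted with limma 3.58.1 (R 4.3.3), with a mean for each of the 19 groups (61 residual degrees of freedom) and a variance trend. P-values were adjusted by Benjamini-Hochberg over 15396 genes with a value above -1.5 log2 RPKM in at least 1 library. The scripts were tested on simulated data. Summaries used Python 3.11.15, numpy 2.4.6 and pandas 2.3.3.

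The 9 members, the pathway lists and the marker lists were chosen with earlier results of these data known. All members are named, together with 2 to 4 called genes of a list with the largest difference and the 3 genes most alike to each member. Genes named from outside that rule (Fbxo4, and those whose groups' levels are given) were chosen after their values were seen, as were the ratios to Ccnd1, which used exact permutation tests. Alternatives covered the pseudocount, the filter, the scaling, the variance trend, the replicate block, subsets of libraries, the limit of 1e-07 that the study used, and leaving out each library. Same-numbered PH and sham livers were checked for pairing: 3 of 17 pairs had a correlation of deviations over 0.1 (range -0.19 to 0.27). The promoter window of Ccnd1 is not reported here.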

Additional observations from a re-analysis of the deposited data

Results flagged for a closer look

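The difference between PH and sham livers changed between times for several members (limma, adjusted p below 0.05 for the change itself). From 10 to 48 h it grew by 1.40 for Ccnd1, 1.96 for Ccne1, 1.42 for Ccne2, 0.86 for Cdk2 and 1.36 for Cdc25a on the log2 scale. From 20 to 48 h it grew by 0.96 for Ccne1, 0.93 for Ccne2, 0.74 for Cdk2 and 1.06 for Cdc25a. After median scaling or quantile normalization the changes from 10 to 48 h of Ccnd1 and Cdk2 and all 4 from 20 to 48 h were no longer called. Omitting 1 library ended the call of Ccnd1 from 10 to 48 h in 6 of 17 cases, and from 20 to 48 h that of Ccne1 in 13 and those of Ccne2 and Cdk2 in 9 each, and that of Cdc25a in none. Time and collection period cannot be told apart in these changes.

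A single library stood far from the others of its group, by Dixon's criterion, in 5 of 72 combinations of a gene and a group. Only groups of at least 4 libraries were checked. Chance flags about 1 in 20 (3.6 of 72), and these combinations share libraries. Ccnd2 was at 0.314 RPKM in S4 replicate 4 (group median 0.431), Cdk4 at 3.90 RPKM in S1 replicate 3 (median 5.03) and Cdk6 at 0.919 RPKM in X20 replicate 5 (median 1.56). Cdc25a was at 0.729 RPKM in X1 replicate 3 (median 0.443) and at 1.59 RPKM in X48 replicate 3 (median 2.59).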

How the results depend on the processing

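Of 143 member calls over all comparisons, 82 held under every alternative other than the limit of 1e-07 and without each library in turn, 60 were lost under at least 1 setting, 37 without at least 1 library, and 0 reversed. At an adjusted p limit of 1e-07, member calls went from 57 to 32 (post-PH against C0), 12 to 3 (sham against C0), 16 to 3 (PH against sham), 29 to 6 (successive post-PH times), 11 to 1 (successive sham times), 9 to 1 (unoperated and 4-week controls) and 9 to 0 (differences between times), and calls of other pathway genes from 55 to 28. A pseudocount of 1 left 7 sham calls. Median scaling and quantile normalization each left 10 PH and sham calls and 3 differences between times, and no filter on low values left 5 of the latter; apart from the scaling shift given above, the cause was not tested. By reads in place of RPKM, Ccnd1 made up 84.9% of D cyclins at 36 h. By reads it also exceeded Ccnd3 in C4 (48.1 and 44.3%), S4 (58.5 and 37.1%), S10 (52.4 and 44.1%), X20 (54.4 and 38.1%) and X4W (56.2 and 34.8%), and Ccnd2 was 12.1% in C0. Without 1 library the calls ranged from 53 to 58, 11 to 13, 13 to 17, 27 to 31, 10 to 12, 5 to 10 (5 without C4 replicate 2) and 5 to 11 (5 without S48 replicate 1) in the order above.

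With the replicate number as a block the calls were 51, 12, 17, 28, 10, 9 and 9 in the same order; the livers share only a number, so the block is not a pairing. Depth limited Ccne1 and Ccne2 where they were low.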
